A study of Capra hircus with 3 samples.

Results

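Melanocyte-lineage cells were taken from the E90 library of fetal goat back skin (breed Northern Shaanxi White Cashmere Goat) as the cells with at least 1 unique molecular identifier (UMI) for at least 3 of 9 pigment genes, namely PMEL, MLANA, DCT, TYRP1, TYR, MITF, TRPM1, SLC45A2 and OCA2. The rule found 108 of 6931 E90 cells, which is 1.56% (exact 95% binomial interval 1.28 to 1.88), out of 20676 cells in the whole series. The series holds 3 droplet-based 3′ single-cell RNA libraries, 1 each at E60, E90 and E120, that is, embryonic days 60, 90 and 120. Fetuses at each stage numbered at least 2, and their cells were mixed before barcoding, so the cells of a stage cannot be assigned to a fetus. Whole skin was broken up with collagenase IV at E60 and E90. At E120 follicles were picked by forceps from collagenase-treated skin and taken apart with TypLE Express. The deposited table has more cells than the 19705 that the study states.

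Melanocytes descend from the neural crest, in part through precursors that travel along nerves and share genes with Schwann cells. The transcription factors MITF, SOX10 and PAX3 set up the lineage, and the receptors KIT and EDNRB carry the signals by which its precursors survive and spread through skin into hair follicles. Pigment is made in melanosomes, organelles in which PMEL forms fibrils, TYR carries out the rate-limiting step of melanin synthesis, DCT and TYRP1 act further along, and SLC45A2 and OCA2 set the conditions that TYR needs. MLANA is a melanosome protein and TRPM1 a cation channel gene that MITF activates.

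The E90 library had 30277663 UMIs, and its cells ranged from 3000 to 21006 UMIs. The members held 486661 of these UMIs, 1.61% of the library, with a lowest cell of 3001 UMIs, a median of 3875 and a highest of 14570. The other 6823 E90 cells had a median of 3712 UMIs, so the depths of both groups were close. Members had a median of 1277 genes and 10.9% mitochondrial UMIs, against 1198 genes and 11.1% in the other cells. Of the E90 cell barcodes 22 also occurred in another library, none of them in a member. With 1 library there was no replicate and no test, so levels are given as UMIs summed over a group and scaled to a total of 1000000 (CPM), with exact 95% Poisson intervals, and shares of cells with exact 95% binomial intervals. Both kinds of interval cover counting error only.

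The 9 genes of the rule did not take part equally. MLANA had a UMI in 100 members, TRPM1 in 99, PMEL in 88, SLC45A2 in 62, TYR in 47, MITF in 18 and DCT in 8. TYRP1 and OCA2 had no UMI in any member. All of MLANA, TRPM1 and PMEL were present in 76 members, 27 had a pair of them and 5 had 1. The commonest combination was these 3 genes alone, in 26 members, followed by the same genes with SLC45A2, in 14. The label thus rests on MLANA, TRPM1 and PMEL, whereas DCT, the remaining gene given as a marker, was at 20.5 CPM (9.85 to 37.8) over the members. A floor of 3 UMIs corresponds to 6.16 CPM in the members, and the exact 95% upper limit of a count of 0 is 7.58 CPM. TYRP1 had 0 UMIs in the whole E90 library, 5 at E60 and 3 at E120. Whether its transcripts could be counted with the authors' annotation, which is not given in the sources used here, was not tested, so its 0 says nothing firm about the members. OCA2 had 40 UMIs, all in other cells, where it was at 1.34 CPM. That is below the 7.58 CPM limit of a 0 in members, so its 0 does not tell members from others.

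Since the levels of these genes chose the cells, they are given as a description. TRPM1 was at 1229 CPM (1132 to 1331) in members, against 9.84 CPM in other E90 cells, with a lowest member of 0 UMIs, a median of 2.5 and a highest of 75. MLANA was at 1007 CPM (919.7 to 1100) and 10.2 CPM (9.09 to 11.4), with a median of 2 UMIs per member and a highest of 53. PMEL was at 631 CPM (562 to 705) and 5.77 CPM (4.94 to 6.70), with a median of 1 UMI and a highest of 26. SLC45A2 was at 253 CPM and 2.15 CPM, TYR at 164 CPM and 1.78 CPM, and MITF at 43.2 CPM and 3.79 CPM. The few members held 67.1% of all TRPM1 UMIs of the library, 61.7% of MLANA, 64.1% of PMEL and 60.2% of TYR. Outside them, 3.80% of the other cells had a UMI of MLANA and 3.44% one of TRPM1.

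**Figure D1:**
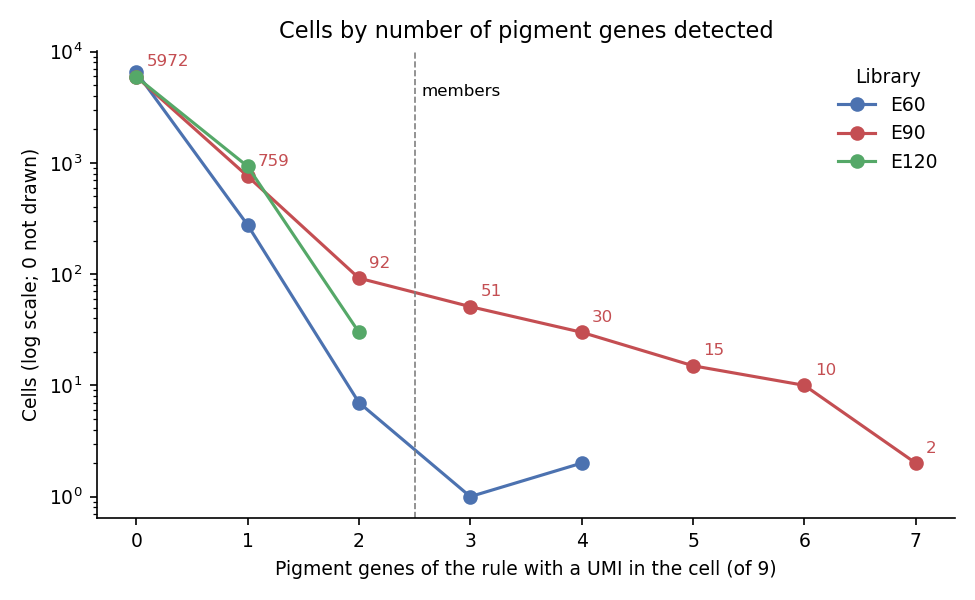
Number of cells (log scale) against the number of the 9 pigment genes with a UMI, for the E60, E90 and E120 libraries, with E90 counts printed at its points and the rule at 3 genes as a dashed line. E90 goes on to 7 genes, with 51, 30, 15, 10 and 2 cells at 3 to 7 genes, whereas E60 has 3 cells beyond the line and E120 has none.

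Cells near the threshold graded into each other. The 51 members with exactly 3 genes had 3 to 16 UMIs of the rule genes with a median of 5, and the 92 cells with exactly 2 genes, which the rule left out, had 2 to 8 with a median of 2. A further 759 cells had 1 gene. Over all members the rule genes summed to 8 UMIs at the median and 173 at the highest, or 0.197% and 1.19% of a cell's UMIs. The 10 members with the most such UMIs held 45.5% of the members' total of 1629. Depth bore on who was counted: with each cell thinned to 2000 UMIs, which every E90 cell had, 64 cells met the rule in place of 108. A limit of 4 genes gave 57 cells and a limit of 2 gave 200.

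Genes outside the rule were compared next, to describe what else these cells carried. A gene was called higher or lower at a 2-fold ratio of CPM + 10, members over other E90 cells, and among the 15231 genes with a UMI at E90 136 were higher (0.893%) and 47 lower (0.309%). The median log2 ratio of all these genes was -0.02. These shares are the background for the list counts below, and a short list with 0 genes called lies close to them. The counts depended on the cells with the most pigment UMIs: without the 10 members that held most of them, 89 genes were higher and 41 lower. Lists below are counted out of their genes in the table, and a few of these had no UMI at E90 and could not be called. A UMI was found for 26 of 28 melanosome and pigment genes, 17 of 18 receptors, 13 of 15 Schwann and glial genes and 11 of 14 genes of MITF-linked survival. Genes without a UMI enter the medians with a log2 ratio of 0.

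Among genes of the melanosome and its transport that the rule did not use, 8 of 28 in the table were higher and 0 lower, with a median log2 ratio of 0.21. QPCT, an enzyme that cyclises N-terminal glutamine, was at 286 CPM (240.1 to 337) in members and 27.4 CPM (25.5 to 29.3) in other cells, a log2 ratio of 2.98. It had a UMI in 51 members, 47.2%, against 10.3% of the other cells, with up to 18 UMIs in a member. After thinning to 2000 UMIs these shares were 38.0% and 5.35%. LYST, a regulator of lysosome-related organelles, was at 113 CPM (85.1 to 147) and 13.7 CPM (12.4 to 15.1). MYO5A, the motor that moves melanosomes along actin, was at 105 CPM (78.0 to 138) and 33.8 CPM (31.7 to 35.9).

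The other 5 higher genes of the melanosome and pigment list rested on few UMIs. RAB38, a GTPase that brings TYR to the melanosome, had 19 UMIs in 15 members, 39.0 CPM against 4.36 CPM. SLC24A5, a melanosomal cation exchanger, had 14 UMIs in 8 members, of which 7 were in 1 cell, 28.8 CPM against 0.705 CPM. PLXNC1, a semaphorin receptor, was at 30.8 CPM and 0.973 CPM, with 5 of its 15 member UMIs in 1 cell. BACE2, a protease that cuts PMEL, was at 24.7 CPM and 2.48 CPM, and MREG, a melanosome trafficking factor, at 22.6 CPM and 4.26 CPM. GPNMB, a melanosomal glycoprotein found in other cells too, was at 506 CPM (444 to 573) and 262 CPM (256 to 268), a log2 ratio of 0.92 that did not reach 2-fold. AP3B1, a subunit of the adaptor that sorts melanosome cargo, was at 96.6 CPM (71.0 to 128) against 84.4 CPM in other cells. At a pseudocount of 50 CPM, which damps low genes, 2 of the list's genes remained past 2-fold.

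Of the transcription factors of the melanocyte lineage and neural crest, 6 of 19 were higher and 0 lower, with a median log2 ratio of 0.53. PAX3 had 75 UMIs in 32 members, with a highest member of 13, and was at 154 CPM (121 to 193) against 4.16 CPM (3.46 to 4.96) in other cells. Its log2 ratio of 3.53 was the largest among the genes reported here outside the rule with a symbol and at least 100 CPM in members. SOX6 was at 113 CPM (85.1 to 147) and 12.1 CPM (10.9 to 13.4), and MYC, a general growth regulator, at 273 CPM (229 to 324) in members and a log2 ratio of 1.79. ETS1 was at 86.3 CPM against 23.5 CPM, and ALX1, a homeobox gene, had 12 UMIs in the members and 11 in all other E90 cells.

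SOX10 had 10 UMIs in 7 members, of which 4 were in 1 cell, and was at 20.5 CPM (9.85 to 37.8) against 1.68 CPM (1.25 to 2.21). Its log2 ratio of 1.39 went to 0.57 without the 10 members with the most pigment UMIs, as that of ETS1 went from 1.52 to 0.75. The log2 ratio of PAX3 went from 3.53 to 2.32 in the same way. TFAP2A and TFAP2B, factors shared by melanocytes and keratinocytes, were at 497 CPM and 380.1 CPM in members and at 292 CPM and 223 CPM in other cells, log2 ratios of 0.75 and 0.74. ZEB2 was at 107 CPM and 108 CPM. SOX9, a factor of follicle epithelium, was at 173 CPM (138 to 214) in members and 331 CPM (324 to 337) in other cells.

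**Figure D2:**
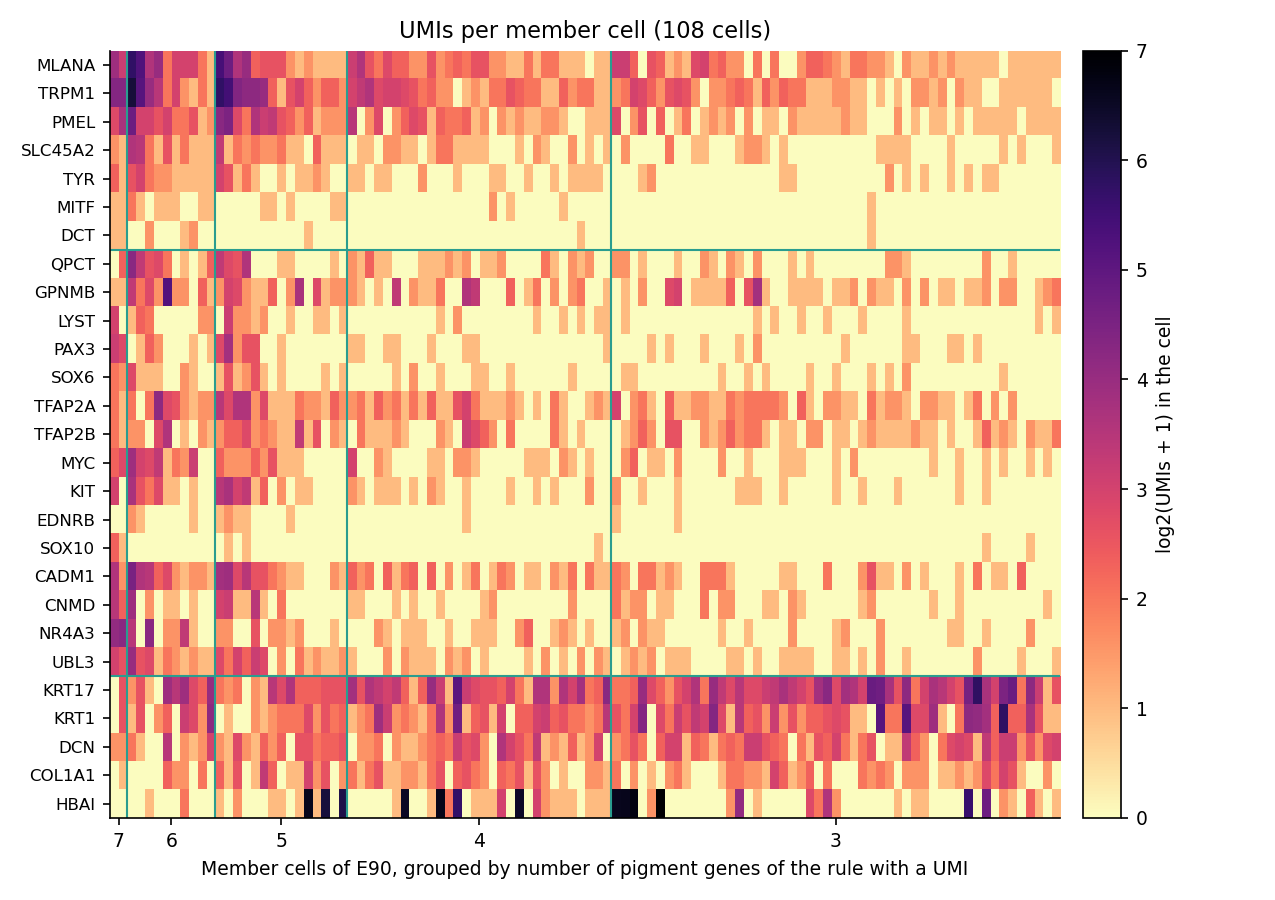
UMIs per cell as log2(UMIs + 1) for the 108 members (columns), grouped by the number of rule genes with a UMI and ordered within groups by UMIs of the rule genes, for rule genes (top block), other pigment and lineage genes (middle) and genes of other cell types (bottom). The columns at the left, with 5 to 7 rule genes, hold most UMIs of KIT and PAX3, while KRT17 and DCN have UMIs in 105 and 96 of the 108 cells.

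Of 18 receptors of the lineage, 4 were higher and 0 lower, with a median log2 ratio of -0.06. KIT, the receptor for KIT ligand, had 112 UMIs in 42 members, with a median of 0 over all members and a highest of 12. It was at 230.1 CPM (189 to 277) against 14.7 CPM (13.4 to 16.1), and 38.9% of members had a UMI against 5.19% of the other cells. Mast cells also carry KIT, and 52 E90 cells with at least 2 of the mast genes CPA3, HDC, MS4A2 and GATA2 had KIT at 232 CPM (174 to 303). Those 52 cells had MLANA at 8.75 CPM (1.06 to 31.6), near the 10.2 CPM of all other cells. No cell met both rules, but with so few cells in each this says little. The members had 1 UMI of CPA3, 2 of GATA2 and 0 of HDC and MS4A2. HDC and MS4A2 had only 8 and 15 UMIs in all other E90 cells, so their zeros do not tell members from others. EDNRB, the endothelin receptor of melanoblasts, had 13 UMIs in 11 members and was at 26.7 CPM (14.2 to 45.7) against 2.45 CPM (1.92 to 3.08). ERBB3, a neuregulin receptor, was at 30.8 CPM and 5.17 CPM, and GPR161 at 14.4 CPM and 2.15 CPM. After thinning to 2000 UMIs, KIT was the receptor still past 2-fold, and EDNRB had a log2 ratio of 0.29. MC1R, the melanocortin receptor, had no UMI in the E90 library.

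Of 18 ligands and antagonists that act on the lineage, 0 were higher and 0 lower, with a median log2 ratio of -0.13, while 2 were higher after thinning. Over all genes without thinning 0.893% were higher and 0.309% lower, so 0 of 18 is close to the background. ASIP, the agouti protein that blocks MC1R, was at 327 CPM (278 to 382) in members and 325 CPM (319 to 332) in other cells, and had a UMI in 74.1% and 71.6% of them. KITLG was at 24.7 CPM (12.7 to 43.1) and 37.5 CPM (35.3 to 39.7). POMC, the precursor of melanocortins, had 6 UMIs in the members, 12.3 CPM against 1.41 CPM.

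Of the 15 Schwann cell and glial genes reported here 3 were higher, namely CDH19, ERBB3 and SOX10, and 0 lower, with a median log2 ratio of 0.17. CDH19, a cadherin of crest-derived precursors, was at 34.9 CPM (20.3 to 55.9) and 3.66 CPM (3.00 to 4.41). These 15 genes summed to 349 CPM (299 to 406) in members and 304 CPM (298 to 310) in other cells, and the part of Schwann cells in these values was not tested. At a pseudocount of 50 CPM none of the 3 was past 2-fold, and 1 was with members taken at 2 rule genes. S100B and NGFR had 0 UMIs in members but only 3 and 9 in all other E90 cells, and PMP2 and GFAP had none in the library, so these zeros do not tell members from others. PMP22, at 201 CPM in members and 250.4 CPM in other cells, made up most of both sums of the 15 genes. The sums thus say little about the other genes of the list.

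By a rule of size, the 20 genes with a symbol and at least 100 CPM in members that had the largest log2 ratio were taken, and 19 of them are reported. Besides PAX3, KIT, QPCT, SOX6, LYST, MYC and MYO5A they held 12 genes of other kinds. CNMD, which encodes chondromodulin, was at 209.6 CPM (171 to 254) against 9.77 CPM (8.68 to 11.0), in 40 members. NR4A3, an inducible nuclear receptor, was at 277 CPM (233 to 328) and 21.6 CPM (19.9 to 23.3), in 46 members. UBL3, a ubiquitin-like protein, was at 296 CPM and 69.9 CPM, and CADM1, an adhesion molecule of nerve and melanocytes, at 491 CPM (431 to 557) and 140.3 CPM (136 to 145). BANP, ADAM10, SWAP70, BIRC2, PHGDH, JAM3, DOK5 and ITPR2 had log2 ratios from that of ITPR2, at 127 CPM against 49.9 CPM, up to 1.64 for BANP, at 144 CPM against 39.3 CPM. Of 18 adhesion and migration genes, CADM1 and CDH19 were higher and 0 lower. Without the 10 members with the most pigment UMIs, 15 of the 19 stayed past 2-fold, while PHGDH at 0.999, BIRC2 at 0.99, DOK5 at 0.93 and MYO5A at 0.65 did not. The log2 ratio of KIT went from 3.28 to 2.30, that of CNMD from 3.47 to 2.60, that of NR4A3 from 3.19 to 2.39 and that of QPCT from 2.98 to 2.31. A further gene, listed with the Ensembl identifier ENSCHIG00000025627 and no symbol, was at 808 CPM (729.7 to 891) against 24.5 CPM in 75 members.

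The same rule named 10 lower genes, of which 4 were past 2-fold. ACTA2, the smooth muscle actin, was at 34.9 CPM (20.3 to 55.9) in members and 103 CPM (99.0 to 106) in others. PENK, which encodes the enkephalin precursor, was at 148 CPM (116 to 186) and 337 CPM (331 to 344). THEM5, PENK and SEMA3E had log2 ratios of -1.19, -1.14 and -1.01. F2R, VCAN, ID1, MMP2, SPP1 and SOX9 lay between -0.99 and -0.90. After thinning to 2000 UMIs, ACTA2 alone of the 4 was still past 2-fold, with THEM5 at -0.998 and SEMA3E at -0.91, just short of it, and PENK at -0.68.

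**Figure D3:**
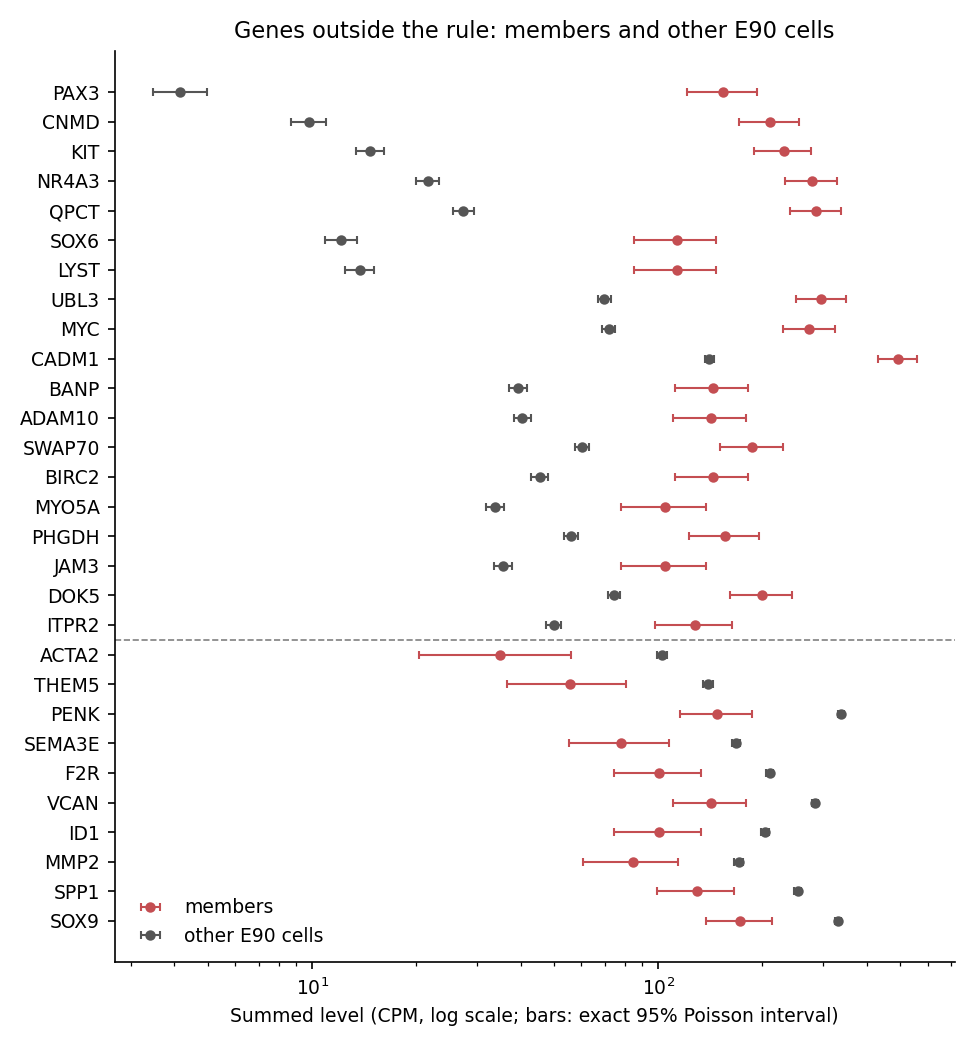
Summed level (CPM, log scale) of the 19 named higher genes (above the dashed line) and the 10 named lower genes in the 108 members (red) and the 6823 other E90 cells (grey), with exact 95% Poisson intervals. PAX3, CNMD and KIT are separated most. The genes were chosen by the size of this difference, so the gap between the intervals of both groups is no test of it.

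Transcripts of keratinocytes and fibroblasts were counted in nearly all E90 cells, members and others. Of 12 basal keratinocyte genes 0 were higher and 0 lower, and their sum was 3738 CPM (3568 to 3914) in members against 5207 CPM (5181 to 5233) in other cells. KRT17 had a UMI in 105 members, 97.2%, and in 99.2% of the other cells, with a median of 6.5 and a highest of 54. It held 920 of the 1819 basal UMIs of the members, so their sum largely followed KRT17. KRT14 went the other way, at 978 CPM in members and 755 CPM in other cells, with 127 of its 476 member UMIs in 1 cell. KRT14, CDH3 and TP63 had log2 ratios of 0.37, 0.41 and 0.007, and those of the other basal genes were negative. The 9 suprabasal genes in the table summed to 2975 CPM (2824 to 3133) and 4586 CPM (4562 to 4610), and the 8 fibroblast genes to 2852 CPM (2704 to 3006) and 4435 CPM (4411 to 4459). DCN, a proteoglycan of dermis, had a UMI in 96 members, 88.9%, and in 94.8% of the other cells. Free RNA, attached cells and the cells' own transcripts cannot be told apart in such counts. All these sums were lower in members than in other cells, and their part in the results above was not tested.

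Markers of other cell types were scarcer. The 9 myeloid genes in the table all had 0 UMIs in members, against 24.8 CPM (23.0 to 26.6) in other cells. The 7 mast cell genes had 6 UMIs in all, 12.3 CPM (4.52 to 26.8) against 40.5 CPM (38.3 to 42.9). The 8 mural genes summed to 74.0 CPM (51.8 to 102) and 178 CPM (173 to 183), with ACTA2 lower. The 9 endothelial genes summed to 55.5 CPM (36.6 to 80.7) in members and 62.4 CPM (59.6 to 65.3) in other cells, intervals that overlap. CDH5, CLDN5 and EMCN were at 0 in members but had only 47, 26 and 113 UMIs in all other E90 cells, while PECAM1 was at 12.3 CPM and 10.2 CPM. The 6 Merkel cell genes summed to 57.5 CPM (38.2 to 83.2) and 93.6 CPM (90.2 to 97.2), with CHGA at 20.5 CPM and 19.1 CPM. KRT20, ATOH1 and ISL1 were at 0 in members and had 147, 3 and 7 UMIs in the other cells. HBAI, an alpha globin, was at 2416 CPM in members and 2178 CPM in others, and 15 members with 10 or more UMIs held 1107 of its 1176 UMIs.

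No cell cycle gene was 2-fold higher. The 20 genes summed to 1346 CPM (1245 to 1453) in members and 1508 CPM (1494 to 1522) in other cells, and AURKB was lower. TOP2A had a UMI in 46.3% of members and 45.3% of others, and 30.6% and 29.2% after thinning. Genes of MITF-linked survival and growth had 1 of 14 higher, DUSP4, a phosphatase of the MAP kinase pathway, at 45.2 CPM and 9.03 CPM.

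The members differed among themselves in lineage genes outside the rule, along the number of pigment genes they showed. KIT was at 62.5 CPM (33.3 to 107) in the 51 members with 3 rule genes, 127 CPM in the 30 with 4, and 543 CPM (432 to 673) in the 27 with 5 or more. PAX3 took values of 57.6 CPM, 63.7 CPM and 360 CPM (271 to 468) in the same order, and QPCT 115 CPM, 239 CPM and 556 CPM (444 to 687). Their levels outside the rule were lower still: the 92 cells with 2 rule genes had KIT at 37.3 CPM (20.9 to 61.5), and the 5972 with none had 13.7 CPM (12.3 to 15.2). The median depth was 3615, 3810.5 and 4179 UMIs for 3, 4 and 5 or more genes, so depth was higher where more genes were found. Its part in these differences was not tested. The 10 members with the most rule UMIs all had 5 or more rule genes. The 10 members with the most PAX3 UMIs held 70.7% of them, and the like share for KIT was 67.0%. For PAX3 and KIT the values of the group with 5 or more genes thus rest on few cells.

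Keratinocyte transcripts were lower in members with more rule genes. Basal keratinocyte genes summed to 5736 CPM (5415 to 6071) in members with 3 rule genes, 3272 CPM in those with 4 and 1400 CPM (1218 to 1600) in those with 5 or more, against 5210 CPM (5182 to 5238) in cells with none. Suprabasal genes were at 4194 CPM, 2794 CPM and 1465 CPM (1279 to 1670) in the same order. Both sums were highest in the 92 cells with 2 rule genes, at 6253 CPM (6011 to 6502) and 6079 CPM (5841 to 6325), so they did not follow the number of rule genes over its whole range. Fibroblast genes were at 3065 CPM (2832 to 3312) with 3 rule genes and 3288 CPM (2979 to 3621) with 4, intervals that overlap, and at 2204 CPM (1975 to 2452) with 5 or more. The basal sum of the 27 members with 5 or more rule genes thus lay below that of cells without pigment genes. Over all members the basal genes had a median of 10 UMIs per cell and a highest of 198. Such a sum can therefore rest on 1 cell, and the interval does not cover the spread between cells. The members with 3 rule genes had 1194 basal UMIs in all and included the cell with the most KRT17, 54 UMIs. Their basal sum lay above that of cells without pigment genes, but this order can rest on that cell. Their suprabasal sum, 4194 CPM, lay below the 4560 CPM of cells with none. Cell cycle genes were at 974 CPM (824 to 1144) in those 27 cells and at 1590 CPM (1423 to 1771) in those with 3. The listed melanosome and pigment genes outside the rule summed to 903 CPM, 1202 CPM and 2315 CPM (2080 to 2569). Ribosomal protein genes stayed between 143806 and 144591 CPM.

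**Figure D4:**
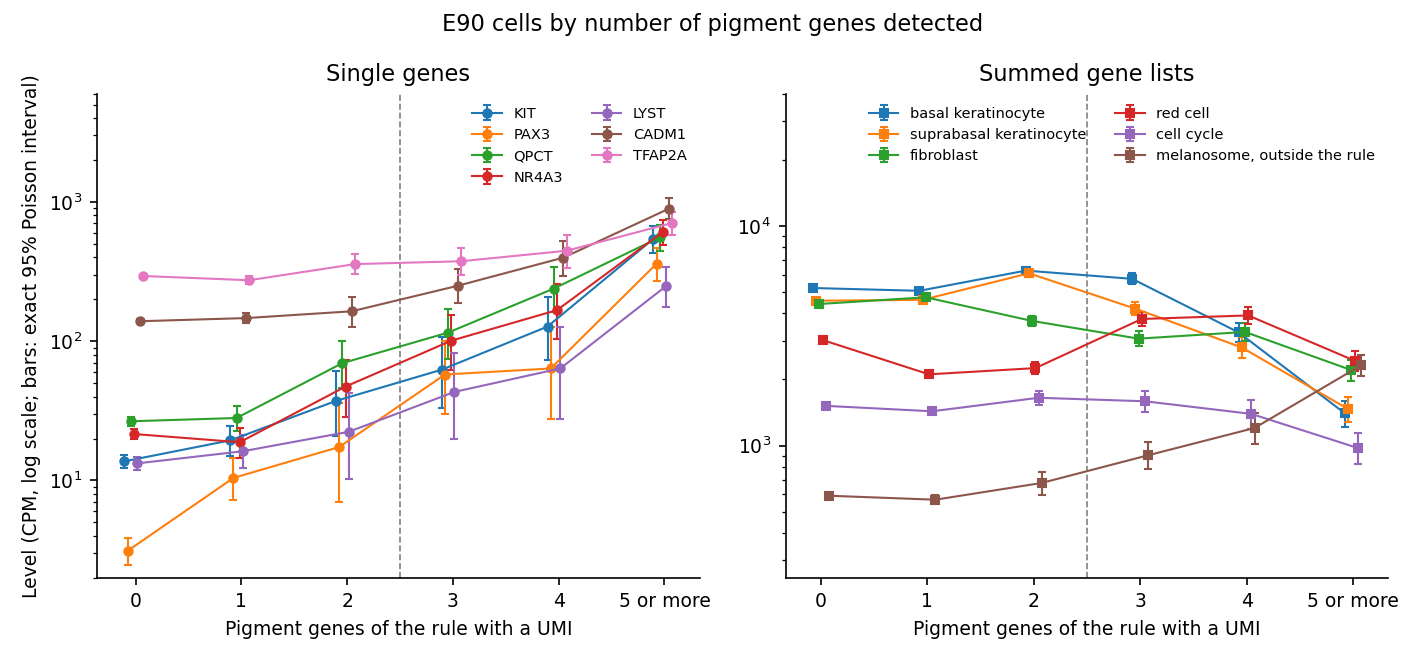
Level (CPM, log scale, exact 95% Poisson intervals) of single genes (left) and of summed gene lists (right) in E90 cells with 0, 1, 2, 3, 4 and 5 or more pigment genes of the rule, with the limit for members as a dashed line. KIT goes from 13.7 CPM in cells with none to 543 CPM in cells with 5 or more, while basal keratinocyte genes go from 5210 CPM to 1400 CPM.

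Some early lineage genes were found in part of the members. Of KIT, PAX3, SOX10 and EDNRB, at least 1 had a UMI in 57 members and none in 51. In the other E90 cells the shares with a UMI were 5.19%, 1.44%, 0.674% and 1.04% in the same order, and the share with any was not computed. SOX10 and EDNRB had only 10 and 13 UMIs in all members, so a member without a UMI cannot be said to lack these genes. KIT was found in 25 of the 47 members with TYR, 53.2%, and in 17 of the 61 without it, 27.9%. PAX3 was found in 40.4% and 21.3% of the same groups. Of the 32 members with PAX3, 20 had KIT. Members with TYR had a median of 4037 UMIs and those without it 3681, and the part of depth was not tested.

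The same rule was applied to the other stages. At E60 it found 3 of 6849 cells (0.0438%, 0.00903 to 0.128). At E120 it found 0 of 6896 cells, with an exact upper limit of 0.0535% and a limit of 0.0435% by a floor of 3 cells. The median cell of those libraries was deeper than at E90, at 8579 and 13064 UMIs, and the part of depth was not tested. Of the 3 E60 cells, 1 had 79 UMIs of MLANA, 51 of TRPM1, 27 of PMEL and 10 of KIT, and another had 6, 2, 15 and 0. The remaining E60 cell had 2 UMIs of DCT, 1 each of MITF, TRPM1 and SOX10, and none of MLANA or PMEL. At E120, MLANA, TYR and PAX3 had 0 UMIs in the whole library, TRPM1 had 17 and SLC45A2 10. PMEL had 114 UMIs in 103 cells and MITF 144 UMIs in 125 cells there, and OCA2 had 13. DCT had 969 UMIs in 722 E120 cells, 10.4 CPM (9.73 to 11.0), against 1.55 CPM (1.14 to 2.06) at E90, in cells that did not meet the rule. Over whole libraries KITLG was lowest at E60 with 8.19 CPM (7.51 to 8.92). E90 had 37.3 CPM (35.1 to 39.5), and the highest value, 307 CPM (304 to 311), was that of E120. Stage, library and, for E120, dissociation cannot be told apart in these values.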

How the data were processed

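The authors deposited 1 table of natural log values, 16739 genes by 20676 cells, from libraries made with the 10x 3′ kit, version 3, per the labels' protocols. Cell Ranger 3.0.2 is named in the submitters' processing notes. The genome build, the annotation and the filters are not given in the sources used here. Back-transformed values summed to 10000 in each cell, and UMI counts were recovered by dividing each cell by its lowest nonzero value, taken as 1 UMI. The quotients were whole to within 0.01 for 100% of nonzero values. Genes are named as in the table.

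All cells were used, no doublet caller was run and no cell was removed. Sums, intervals and ratios were computed in Python 3.11.15 with numpy 2.4.6 and scipy 1.17.1, and tested on simulated data. Named genes were the 20 highest and 10 lowest log2 ratios among genes with a symbol and at least 100 CPM in the higher group, without the rule genes, plus listed genes. A few genes are not reported here and were left out of the lists, the named genes and the figures, not of the totals. The members and the gene lists were chosen with earlier results of these data known. Alternatives changed the rule, the pseudocount, scaling, weighting, depth, the filters and the comparison cells.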

Additional observations from a re-analysis of the deposited data

How the results depend on the processing

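Of 35 named or listed genes past 2-fold, 12 stayed past it under all 14 alternatives, 20 under all but the pseudocount of 50 CPM, and none changed sign in 489 gene and alternative pairs. The number of E90 cells by the rule, 108, was 200 with at least 2 rule genes, 57 with at least 4 and 64 after thinning to 2000 UMIs. With at least 2 rule genes, E60 gave 10 cells and E120 gave 30. The 136 higher and 47 lower genes became 1197 and 1695 at a pseudocount of 1 CPM, 33 and 2 at 50 CPM, 70 and 12 with at least 2 rule genes, and 258 and 225 with at least 4. Keeping only cells with no fewer than 1000 genes and no more than 10% mitochondrial UMIs left 42 members and gave 283 and 328. Thinning gave 209 lower genes. Without the 10 members with the most pigment UMIs 89 genes were higher. This alternative and the one without barcodes shared between libraries were chosen after seeing the data. At 1 CPM a single UMI can pass 2-fold, and the cause of the other changes was not tested. At 50 CPM the higher genes numbered 2 in the melanosome and pigment list, 3 among transcription factors, 1 among receptors and 0 among Schwann and glial genes. With at least 2 rule genes, 2 receptors and 1 Schwann gene were higher. Thinning left 1 receptor and gave 2 ligands, whereas 1 ligand passed at 1 CPM and 1 in the cells kept by gene number and mitochondrial share. Scaling by the median of ratios moved the members by 0.03 on the log2 scale. No paired analysis was possible because each stage had 1 library. In the members 1 UMI is about 2.05 CPM, so the floor of 3 UMIs is 6.16 CPM and the exact upper limit of a count of 0 is 7.58 CPM.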
